A study of Mus musculus with 30 samples.

Results

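The loss of interleukin-34 (IL-34) was compared between isolated microglia and whole forebrain of the same mice, so that each gene has a loss effect in each tissue and a difference between them. The comparison used all 30 labelled libraries of the series, from 15 animals that each gave 1 forebrain library and 1 library of cells isolated on magnetic beads by the surface protein CD11b, called isolates here. The 2 libraries of an animal came from opposite hemispheres. The loss arms were 3 Il34 knockout mice (KO) and 4 wild-type mice given an antibody to IL-34 (a-IL34). The control arms were 4 mice heterozygous for Il34 (Het), which keep a single intact copy, and 4 wild-type mice given a control antibody (a-gp120). The Het and a-gp120 arms each held 2 males and 2 females, the KO arm 1 male and 2 females, and the a-IL34 arm 3 males and 1 female. Age, antibody dose and schedule were not given in the sources used here. The question put to these libraries was whether microglial RNA changed per cell or through fewer cells. In bulk RNA, fewer cells of a type and less RNA per cell cannot be told apart.

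IL-34 and colony stimulating factor 1 (encoded by Csf1) are the known ligands of the receptor CSF1R. In the brain CSF1R is carried by microglia and by macrophages at the borders of the brain, which need its signal to survive and to keep their differentiated state. IL-34 in the forebrain is made mainly by neurons. Homeostatic microglia are recognised by genes such as P2ry12, a receptor for extracellular nucleotides, and Tmem119, a surface protein used to tell them from blood-derived macrophages.

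Total counts ran from 15064391 to 75158213 in forebrain and from 15755836 to 50541164 in isolates. Levels are CPM, the count scaled to library size, with trimmed mean of M-values (TMM) scaling over all 30 libraries, and effects are log2 fold changes of loss against control from edgeR's quasi-likelihood test with Benjamini-Hochberg adjustment at 0.05. Isolates were rich in myeloid RNA. The summed level of 18 pan-myeloid genes was 8261 to 17160 CPM in control isolates and 170 to 372 CPM in control forebrain. Of that list, Itgam, which encodes CD11b itself, was at 0 in all forebrain libraries and at most 0.177 CPM in an isolate, so it gave no check of the isolation. Overlapping gene spans can cost a gene its counts, and whether they did so here was not tested, so a 0 is not read as absence. Isolates also held RNA of other brain cells. The summed level of 4 neural lists (excitatory neurons, inhibitory neurons, astrocytes and oligodendrocyte lineage) was 7311 to 34150 CPM in control isolates and 21070 to 39760 CPM in loss isolates.

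In the pooled test, the loss effect differed between isolates and forebrain for 7114 of 20634 genes (34.5%), 4175 of them higher in isolates (20.2%) and 2939 lower (14.2%). The median difference over all genes was 0.11. In forebrain alone 244 of 19724 genes were called (1.24%), 8 higher (0.0406%) and 236 lower (1.2%). In isolates alone 8468 of 18732 were called (45.2%), 4087 higher (21.8%) and 4381 lower (23.4%). The higher isolate calls were 2532 without KO animal 24 and 2620 without a-gp120 animal 1. The 8 higher forebrain calls were 1 without a-IL34 animal 11 or 24 or a-gp120 animal 1 or 7, 3 without a-gp120 animal 8 and 31 without KO animal 3. They were 22 with DESeq2, 13 with limma and 109 with no filter on low counts. Scaling decided part of the split, since 51.6% of called genes were higher with TMM computed within each tissue, against 58.7%.

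Each experiment alone, with fewer animals, called far fewer genes. The tissue difference was called for 515 genes in the genotype experiment (2.56%), 0.453% of those tested higher and 2.11% lower, and for 2 genes in the antibody experiment, both lower (0.0109%). In forebrain the genotype experiment called 0.62% (0.00517% higher and 0.615% lower) and the antibody experiment 0.717% (0.192% higher and 0.525% lower). In isolates they called 5.37% (0.143% higher and 5.22% lower) and 0.626% (0.0228% higher and 0.603% lower).

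The targeted gene was read first. Il34 (chr8:110741829-110805924, GRCm38) was at 18.6, 19.0, 23.1 and 23.2 CPM in Het forebrain and at 6.55, 7.52 and 8.31 CPM in KO forebrain. In isolates it was at 5.06, 7.22, 8.02 and 10.3 CPM in Het and at 5.17, 6.41 and 7.05 CPM in KO. The genotypes did not overlap in forebrain but did in isolates, where Il34 was low in both. The antibody arms kept Il34 RNA, at 30.5 to 38.3 CPM in a-gp120 forebrain and 34.7 to 39.4 CPM in a-IL34 forebrain. The tissue difference of Il34 was 0.70 ± 0.21 (SE, edgeR adjusted p = 0.0166). It was 1.24 in the genotype experiment alone and 0.27 in the antibody experiment alone. The other ligand had a tissue difference of the opposite sign, from a fall in isolates. Csf1 was at 108 to 601 CPM (median 324) in control isolates and at 95.0 to 356 CPM (median 211) in loss isolates, and the groups overlapped. Its effect was -0.81 ± 0.26 (SE, edgeR adjusted p = 0.0215) in isolates and 0.21 ± 0.094 (SE, edgeR adjusted p = 0.629) in forebrain, with a tissue difference of -0.94 ± 0.25 (SE, edgeR adjusted p = 0.0110). Scaled to the summed pan-myeloid counts, which moved the isolate median of all genes to 1.14, the isolate effect of Csf1 was 0.34 (edgeR adjusted p = 0.0650) and its tissue difference -0.76 (edgeR adjusted p = 0.0590).

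The receptor gene fell in both tissues. Csf1r was at 42.4, 42.6, 46.2 and 48.3 CPM in Het forebrain and 14.4, 17.1 and 17.4 CPM in KO forebrain, and at 62.2, 88.2, 92.5 and 94.1 CPM under a-gp120 and 30.5, 32.8, 37.7 and 39.1 CPM under a-IL34. In isolates Csf1r was at 3101, 3567, 3985 and 5300 CPM in Het and 1274, 1302 and 1374 CPM in KO. It was at 3819, 4621, 5359 and 5738 CPM in a-gp120 isolates and 2054, 2207, 2389 and 3065 CPM in a-IL34 isolates. Within each experiment and tissue the loss libraries all lay below the controls. The effect was -1.34 ± 0.076 (SE) in forebrain and -1.29 ± 0.18 (SE) in isolates, and the tissue difference was 0.08 ± 0.16 (SE, edgeR adjusted p = 0.738).

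**Figure D1:**
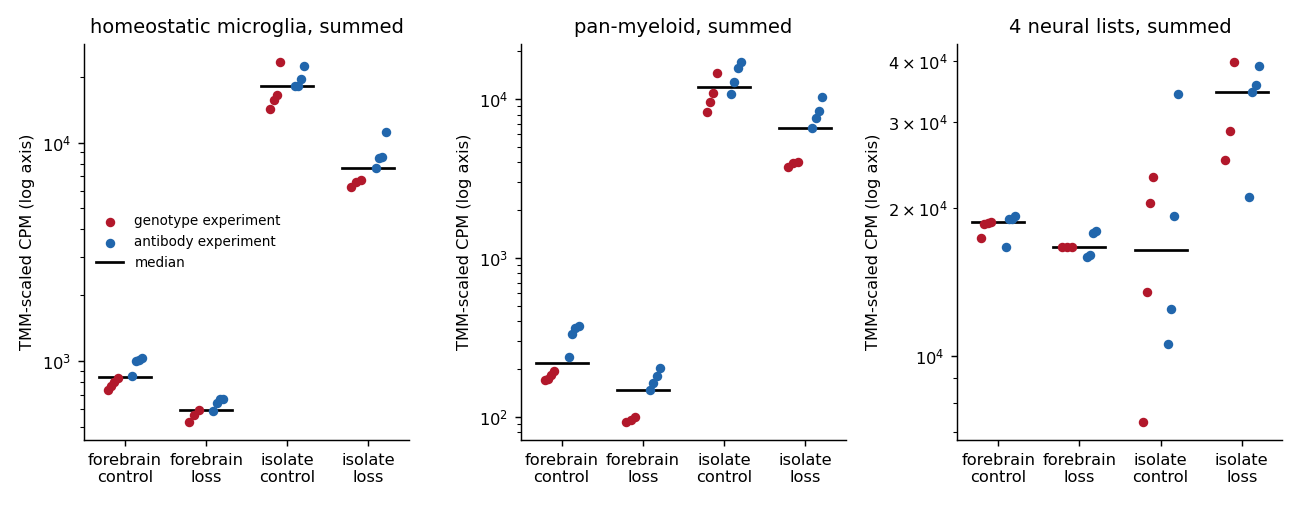
Summed level of the homeostatic microglia list, the pan-myeloid list and 4 neural lists in each of the 30 libraries (TMM-scaled CPM, log axis), by tissue and by control or loss, with the experiment in colour and the median of each group as a line. Homeostatic and pan-myeloid sums did not overlap between control and loss within an experiment and tissue (pan-myeloid sums did when pooled over experiments, whose levels differed), while the neural sum was 7311 to 34150 CPM in control isolates and 21070 to 39760 CPM in loss isolates.

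Most homeostatic microglia genes fell in both isolates and forebrain. Of the 20 genes of this list, 18 fell in forebrain (1.2% of all genes tested did) and 19 in isolates (23.4% of all genes did). The median effect was -1.36 in forebrain and -1.47 in isolates, beside 0.00 and 0.05 over all genes tested. The tissue difference was called for 7 of 20, all lower in isolates, against 14.2% of all genes, and its median over the list was -0.02. P2ry12 was at 31.9 to 59.0 CPM (median 43.4) in control forebrain and 7.73 to 12.8 CPM (median 11.2) in loss forebrain. In isolates it was at 1318 to 2753 CPM (median 1725) in controls and 388 to 659 CPM (median 435) under loss. The groups did not overlap in either tissue. The effect of loss on P2ry12 was -2.01 ± 0.065 (SE) in forebrain and -1.98 ± 0.18 (SE) in isolates, a difference of 0.09 ± 0.19 (SE, edgeR adjusted p = 0.759).

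The promoters of P2ry12 and of Siglech, a lectin receptor of microglia that fell in both tissues, are shown beside that of Gpr165, a gene described further on that fell in isolates and not in forebrain. Each is the 250 bases before the RefSeq start (GRCm38.p6), 5′ to 3′ on the gene's strand, and capitals mark the letters GGAAGT on either strand (ACTTCC on the opposite one), the core of sites bound by PU.1, the myeloid transcription factor encoded by Spi1.
P2ry12, chr3:59262986-59263235, minus strand: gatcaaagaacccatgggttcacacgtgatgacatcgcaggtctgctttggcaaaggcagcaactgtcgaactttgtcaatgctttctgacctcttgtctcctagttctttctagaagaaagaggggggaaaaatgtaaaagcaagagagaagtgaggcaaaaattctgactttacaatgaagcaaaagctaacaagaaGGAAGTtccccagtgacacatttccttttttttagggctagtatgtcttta
Siglech, chr7:55767934-55768183, plus strand: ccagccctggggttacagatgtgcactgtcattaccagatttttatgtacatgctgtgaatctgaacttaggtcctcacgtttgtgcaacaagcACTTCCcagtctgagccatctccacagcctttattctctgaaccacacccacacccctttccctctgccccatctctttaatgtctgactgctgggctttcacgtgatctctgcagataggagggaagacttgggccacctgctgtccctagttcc
Gpr165, chrX:96713218-96713467, plus strand: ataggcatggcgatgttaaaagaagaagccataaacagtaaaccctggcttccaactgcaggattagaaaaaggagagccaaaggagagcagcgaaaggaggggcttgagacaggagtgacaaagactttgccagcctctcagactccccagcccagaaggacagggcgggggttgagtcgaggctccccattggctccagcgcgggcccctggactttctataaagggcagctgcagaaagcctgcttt
The letters stood at 1 place in the first, at 1 place in the second and nowhere in this window of the third. They stood in 6 of the 15 homeostatic genes with a RefSeq entry here, in 0 of the 10 with an entry among the 12 named lower genes below, in 2 of the 8 with an entry among the 12 named higher genes, and in 19.7% of all 32851 promoter windows. A match is only a match of letters.

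Other members nearly restricted to microglia also fell in both tissues. P2ry13, its neighbour and a related nucleotide receptor, changed by -1.92 ± 0.096 (SE) in forebrain and -1.86 ± 0.14 (SE) in isolates. Reads of both can also be counted for Med12l, whose span they lie in. Cx3cr1, the fractalkine receptor, was at 30.7 to 57.6 CPM in control and 11.6 to 24.3 CPM in loss forebrain, and at 1548 to 2435 CPM in control and 563 to 1119 CPM in loss isolates. Its groups did not overlap, and its tissue difference was 0.01 ± 0.14 (SE, edgeR adjusted p = 0.973). Tmem119 was at 5.18 to 14.5 CPM in control and 1.81 to 4.22 CPM in loss forebrain, and at 373 to 693 CPM and 114 to 293 CPM in isolates, also with no overlap.

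The 7 members called lower in isolates were Golm1, Adgrg1, Tgfbr1, Sall1, Slc2a5, Ecscr and Sparc. Golm1, a Golgi membrane protein, fell by 0.46 ± 0.051 (SE) in forebrain and by 1.45 ± 0.14 (SE) in isolates on the log2 scale (difference -0.96 ± 0.14, edgeR adjusted p = 0.000629). Its isolates were at 447 to 757 CPM in controls and 182 to 343 CPM under loss. Slc2a5, the fructose transporter of microglia, fell in both tissues but further in isolates. It was at 1.54 to 3.89 CPM in control and 0.49 to 0.99 CPM in loss forebrain, and at 90.6 to 142 CPM in control and 14.8 to 29.4 CPM in loss isolates. Its difference was -0.81 ± 0.20 (SE, edgeR adjusted p = 0.00859). Sall1, a transcription factor that keeps microglial identity, had effects of -0.54 ± 0.12 (SE) in forebrain and -1.15 ± 0.14 (SE) in isolates, a difference of -0.60 ± 0.18 (SE, edgeR adjusted p = 0.0180). Adgrg1, an adhesion receptor, fell in isolates by 0.90 on the log2 scale and was at -0.20 in forebrain, where it was not called (edgeR adjusted p = 0.452).

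Pan-myeloid genes also fell in both tissues. Of 17 tested, 16 fell in forebrain (1.2% of all genes did) and 17 in isolates (23.4% of all genes), with medians of -1.07 and -0.99. The tissue difference was called lower for 2, a share near the 14.2% of all genes. These were Cd68 (-0.55 ± 0.21, SE, edgeR adjusted p = 0.0479), a lysosomal protein of macrophages, and Coro1a (-0.69 ± 0.17, SE, edgeR adjusted p = 0.00879), an actin regulator that neurons also express. The complement genes C1qa, C1qb and C1qc had differences of 0.18, 0.11 and 0.23, none of them called. C1qa was at 7.80 to 21.6 CPM in control and 3.20 to 10.4 CPM in loss forebrain, and at 500 to 1026 CPM in control and 221 to 671 CPM in loss isolates, so its groups overlapped in both tissues. In the antibody experiment alone 0 of the 17 passed in isolates, with a median of -0.69 (0.603% of all genes were called lower). In the genotype experiment alone 14 of 17 did, with a median of -1.32 (5.22% of all genes were called lower).

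**Figure D2:**
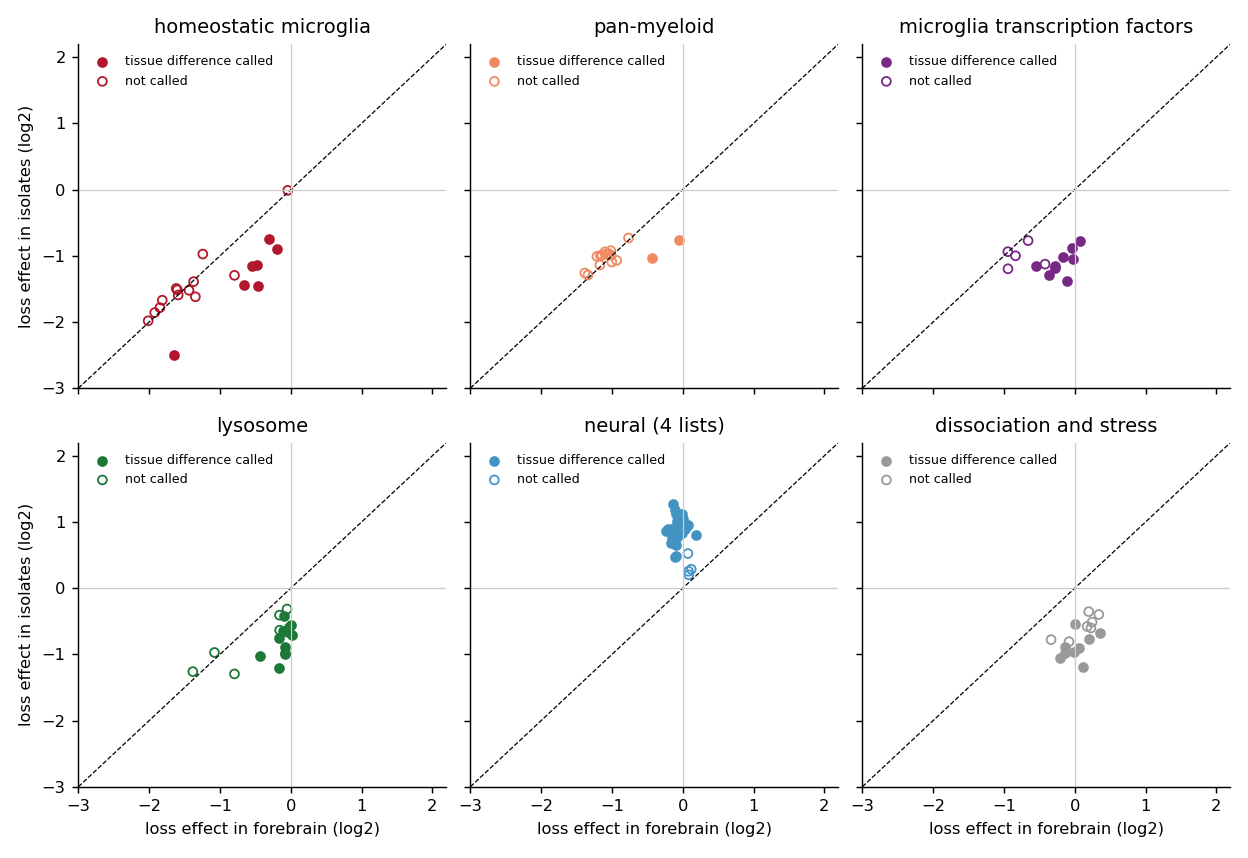
Loss effect in isolates (vertical, log2) against the loss effect in forebrain (horizontal, log2) for the members of 6 gene groups, each point 1 gene, filled where the tissue difference was called, with the dashed line marking equal effects. Most homeostatic and pan-myeloid genes lie along the line, most transcription factor, lysosome and stress genes lie below it, many of them near 0 in forebrain, and neural genes lie above it.

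Scaling each library to its summed pan-myeloid counts shows which microglial genes moved beyond the myeloid RNA as a whole. On that scale 12 of the 20 homeostatic genes were lower under loss in forebrain and 12 in isolates, where 0.208% and 0.534% of all genes were, and 6 and 2 were higher, where 93.9% and 90.3% of all genes were. With both directions, 94.1% and 90.8% of all genes were called on this scale. P2ry12 was at -1.13 ± 0.10 (SE) in forebrain and -0.88 ± 0.16 (SE) in isolates. P2ry13 was at -1.04 and -0.77, Crybb1, a lens protein gene used as a microglial marker, at -0.96 and -0.71, and Tmem119 at -0.91 and -0.59. Siglech was at -0.71 and -0.42, and Cx3cr1 at -0.48 and -0.30. All of these passed the edgeR threshold in both tissues, and the direction held in both. Slc2a5 was at -0.75 ± 0.19 (SE) in forebrain and -1.41 ± 0.22 (SE) in isolates. Sparc and Serpine2, which other brain cells also express, were higher on this scale in both tissues. Golm1 went opposite ways, at 0.44 ± 0.096 (SE) in forebrain and -0.36 ± 0.13 (SE) in isolates, both called. Over all genes this scale moved the median effect to 0.89 in forebrain and 1.14 in isolates, so only values below 0 mark a fall beyond the myeloid sum. Members of the pan-myeloid list themselves lay on both sides of 0 in forebrain. Among them Laptm5 was at -0.49, Csf1r at -0.45, Cd68 at 0.45 and Coro1a at 0.86. The forebrain value of Cx3cr1 was therefore no lower than that of a list member. The tissue difference was called for 214 genes on it (1.04%), 46 higher (0.223%) and 168 lower (0.814%).

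**Figure D3:**
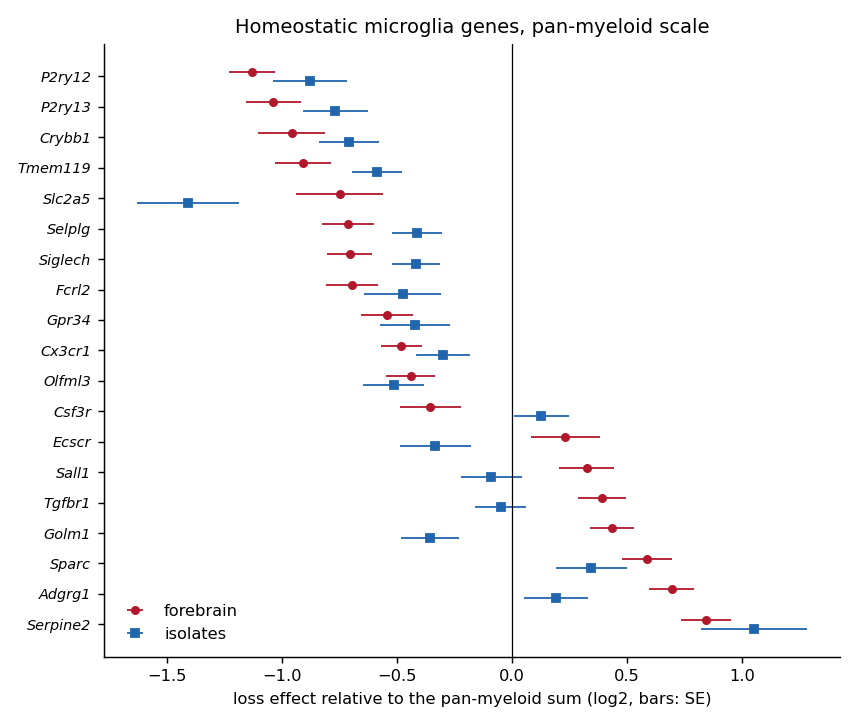
Loss effect relative to the pan-myeloid sum (horizontal, log2, bars are SE of the edgeR fit) for 19 of the 20 homeostatic microglia genes in forebrain and in isolates. P2ry12 is lowest in forebrain at -1.13 and Slc2a5 lowest in isolates at -1.41, while Golm1 lies on opposite sides of 0.

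Genes that forebrain also expressed outside the microglia-restricted set gave the lower differences of smallest p. Their log2 ratios of isolate to forebrain level lay between -2.53 and 2.46, against 5.43 for P2ry12. The 12 lower genes of smallest p were Arsb, Gpr165, Slc25a37, Lyzl4, Med12l, Cep68, Scoc, Slc7a8, Nos1ap, Bid, Eef2k and Kcnd1, and none of them was called in forebrain, where their effects lay between -0.06 and 0.06. Arsb (chr13:93771630-93943016), a lysosomal sulfatase, was at 132 to 157 CPM (median 150) in control and 133 to 146 CPM (median 139) in loss forebrain. In isolates it was at 560 to 839 CPM (median 628) in controls and 256 to 320 CPM (median 288) under loss. Its isolate groups were far apart and its forebrain groups overlapped. The difference was -1.08 ± 0.099 (SE, edgeR adjusted p = 5.3e-05). Gpr165 (chrX:96713441-96719388), an orphan G protein-coupled receptor, was at 88.7, 89.4, 91.8 and 122.9 CPM in Het and 25.4, 27.7 and 33.9 CPM in KO isolates. Under a-gp120 it was at 103.8, 109.5, 114 and 116 CPM and under a-IL34 at 25.7, 27.8, 31.9 and 36.3 CPM. Neither loss arm overlapped with either control arm. In forebrain it was at 7.02 to 15.3 CPM in controls and 5.96 to 11.4 CPM under loss, and the difference was -1.74 ± 0.16 (SE, edgeR adjusted p = 5.3e-05).

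Slc7a8, an amino acid transporter, was at 298 to 529 CPM (median 424) in control and 133 to 271 CPM (median 183) in loss isolates, with a forebrain effect of 0.02 ± 0.048 (SE). Slc25a37, the mitochondrial iron importer mitoferrin, was at 68.1 to 90.9 CPM in control and 32.9 to 51.3 CPM in loss isolates, against 34.5 to 40.2 and 30.3 to 40.9 CPM in forebrain. Bid, a pro-apoptotic member of the BCL2 family, was at 25.2 to 42.3 CPM in control and 11.3 to 22.0 CPM in loss isolates (difference -1.16 ± 0.12, SE, edgeR adjusted p = 8.1e-05). Lyzl4, a lysozyme-like gene, was at 7.11 to 12.1 CPM and 2.12 to 5.75 CPM in isolates (difference -1.68 ± 0.16, SE). These isolate groups did not overlap. Med12l also spans P2ry12 and P2ry13. On the pan-myeloid scale the isolate effects of the 12 lay between -0.74 (Gpr165) and 0.37 (Nos1ap), with Med12l (0.18) and Cep68 (0.29) among those above 0. Of the 12 only Gpr165 (edgeR adjusted p = 0.000865) and Lyzl4 (-0.56, edgeR adjusted p = 0.0135) were called lower in isolates on it. Taken animal by animal, the log2 level of the isolate less that of the forebrain did not overlap between control and loss animals for 15 of the 24 named genes of the difference. That of Arsb was 1.97 to 2.46 in control animals and 0.84 to 1.20 in loss animals. The 24 genes were chosen by this same difference in these animals, which favours separation, so the count is a description.

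**Figure D4:**
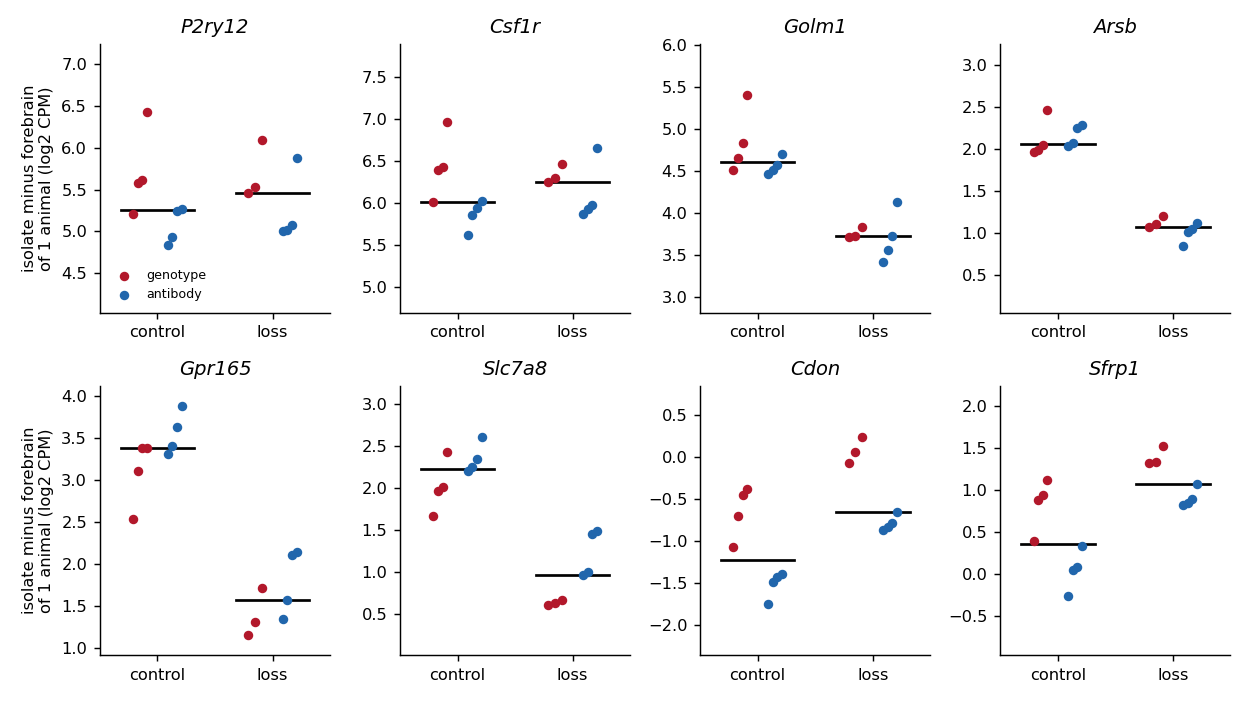
Log2 CPM of the isolate minus that of the forebrain of the same animal (vertical) for 8 genes, each point 1 of 15 animals, with the experiment in colour and the median as a line; each panel spans the same range in log2. P2ry12 and Csf1r overlap between control and loss, Golm1, Arsb, Gpr165 and Slc7a8 are lower under loss with no overlap, and Cdon and Sfrp1 are higher within each experiment.

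Among microglial transcription factors, 9 of 14 tested had a lower effect in isolates (14.2% of all genes did) and 0 a higher one. All 14 fell in isolates (median -1.09) and 6 in forebrain (median -0.32), while on the pan-myeloid scale the isolate median was 0.02, with 0 lower and 2 higher (0.534% and 90.3% of all genes, whose median was 1.14). On that scale 4 passed for a lower tissue difference, and Tal1 (-0.70), Smad3 (-0.60), Mef2c (-0.62) and Sall3 (-0.66) missed the threshold with most of their size kept. Irf8, the remaining member, was at 0 in every library of the count table and was not tested, and the same doubt over its counting applies. Maf, a factor of the AP-1 superfamily active in mature microglia, was at 28.4 to 38.4 CPM in control and 23.0 to 27.3 CPM in loss forebrain, and at 367 to 538 CPM in control and 145 to 240 CPM in loss isolates. It fell in both, by 0.36 and by 1.29 on the log2 scale, and the difference was -0.91 ± 0.13 (SE, edgeR adjusted p = 0.000673). Mef2c, which neurons express at a high level, was at 858 to 1089 CPM in control and 832 to 1070 CPM in loss forebrain, but at 395 to 647 CPM in control and 231 to 385 CPM in loss isolates. Its isolate groups did not overlap, and the difference was -0.80 ± 0.14 (SE, edgeR adjusted p = 0.00177). Mef2a had a difference of -0.98 ± 0.16 (SE). Bhlhe41, Sall3, Tal1 and Smad3 had differences of -1.18, -0.84, -0.89 and -0.78. Ikzf1 and Spi1, which are nearly restricted to the myeloid cells, were not called.

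Lysosome genes fell throughout the list in isolates and seldom in forebrain. Of 18, all fell in isolates (median -0.73), 4 fell in forebrain (median -0.10), and 12 had a lower effect in isolates, against 23.4%, 1.2% and 14.2% of all genes. On the pan-myeloid scale the isolate median was 0.38, with 0 lower and 10 higher, below the 1.14 and 90.3% of all genes. On it 2 passed for a lower tissue difference, and Ctsl (-0.65) and Ctsa (-0.58) missed the threshold with most of their size kept. Ctsd, the protease cathepsin D, was at 32.3 to 45.0 CPM in control and 28.2 to 34.7 CPM in loss forebrain, and at 511 to 1093 CPM in control and 262 to 545 CPM in loss isolates. Its difference was -0.98 ± 0.14 (SE, edgeR adjusted p = 0.000655). Hexa, Ctsl, Ctsa and Ctsb, all lysosomal hydrolases, had differences of -0.86, -0.83, -0.75 and -0.65. Among those that fell in forebrain were Laptm5, Ctss and Cd68, the members with the highest isolate to forebrain ratio. Of these 3 only Cd68 had a called tissue difference. The dissociation and stress list, which responds to the handling of cells, had 9 of 16 lower in isolates (14.2% of all genes) and 0 called in forebrain. Hsp90aa1, a heat shock chaperone, had a difference of -0.92 ± 0.15 (SE, edgeR adjusted p = 0.00119), and Jun, an immediate early factor, of -0.86 ± 0.21 (SE, edgeR adjusted p = 0.00923). With the neural level of the isolates as a covariate neither passed, Hsp90aa1 at -0.64 (edgeR adjusted p = 0.0561) and Jun at -0.46 (edgeR adjusted p = 0.423). Atf3, Hspa1a, Hspa1b, Nr4a1, Junb, Bag3 and Dnajb1 did not pass with it either. On the pan-myeloid scale the difference was -0.75 for Hsp90aa1 (edgeR adjusted p = 0.0552) and -0.68 for Jun (edgeR adjusted p = 0.0489). The summed stress level was 9538 to 18780 CPM in control and 5115 to 13120 CPM in loss isolates, against 623 to 915 and 688 to 941 CPM in forebrain. On the pan-myeloid scale the isolate median of the stress list was 0.35, with 0 lower and 8 higher, also below the 1.14 and 90.3% of all genes. The summed stress level moved with the falls in isolates, and its part in them was not tested.

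Among the ligands, receptor and signalling partners of CSF1R, 7 of 17 had a lower effect in isolates and 3 a higher one, against 14.2% and 20.2% of all genes. The lower ones were Csf1 and the signalling genes Pik3cd (-0.82), Cbl (-0.64), Mcl1 (-0.63), Pik3r1 (-0.59), Stat3 (-0.57) and Grb2 (-0.48). The higher ones were Il34, Ptprz1 (1.15 ± 0.29, SE, edgeR adjusted p = 0.0104), another receptor of IL-34 that glia express, and Bcl2 (0.58 ± 0.13, SE, edgeR adjusted p = 0.00693), a survival gene. With the neural level of the isolates as a covariate Ptprz1 was at 0.14 (edgeR adjusted p = 0.651), Bcl2 at 0.25 (edgeR adjusted p = 0.414) and Csf1 at -0.37 (edgeR adjusted p = 0.569), while Il34 was at 0.73 (edgeR adjusted p = 0.247). None of the other 6 lower genes passed with it either: Mcl1 was at -0.13, Stat3 at -0.17, Grb2 at -0.29, Cbl at -0.40, Pik3cd at -0.53 and Pik3r1 at -0.47, with edgeR adjusted p from 0.0568 to 0.788. In forebrain 5 of the 17 fell and 0 rose (1.2% and 0.0406% of all genes did). Of the disease-associated microglia list, 3 of 20 were higher, Apoe (0.65 ± 0.17, SE), Axl (0.66 ± 0.11, SE) and Fabp5 (0.87 ± 0.18, SE), and 3 lower, Ctsd, Ctsb and Csf1, shares close to those of all genes (20.2% and 14.2%). The neural sum of the isolates moved with the higher ones: with the neural level as a covariate Apoe was at 0.26 (edgeR adjusted p = 0.513), Fabp5 at 0.27 (edgeR adjusted p = 0.264) and Axl at 0.54 (edgeR adjusted p = 0.0829). Apoe, the lipid carrier that astrocytes also make, was at 1253 to 2424 CPM in control and 2008 to 3037 CPM in loss isolates. Axl and Mertk, both receptors that bind apoptotic cells, had opposite differences, 0.66 and -0.63 ± 0.14 (SE, edgeR adjusted p = 0.00571). With the covariate Mertk was at -0.31 (edgeR adjusted p = 0.294).

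Neural genes were higher in loss isolates, with no pooled call in forebrain. The tissue difference was higher for 8 of 9 excitatory neuron genes (median 1.14), 7 of 9 inhibitory neuron genes (median 0.97), 9 of 10 astrocyte genes (median 0.99) and 12 of 12 oligodendrocyte lineage genes (median 1.09), against 20.2% of all genes. In the pooled forebrain test 0 members of these 4 lists were called, with medians between -0.13 and 0.01. The genotype experiment alone called 5 of 12 oligodendrocyte lineage genes lower there (median -0.26), against 0.615% of all genes. Slc1a2, the main glutamate transporter of astrocytes, was at 1984 to 13430 CPM (median 4827) in control and 7281 to 13520 CPM (median 11310) in loss isolates, with overlap. Gad1, which makes the transmitter GABA, was at 7.68 to 27.7 CPM and 20.9 to 50.1 CPM. On the pan-myeloid scale most neural members missed the threshold for the tissue difference with their size kept. Slc1a2 was at 1.36 (edgeR adjusted p = 0.0613) and Gad1 at 1.18 (edgeR adjusted p = 0.0602), while Dlx6 passed at 1.405 (edgeR adjusted p = 0.0349). Control isolates varied: a-gp120 animal 15 and Het animal 1 had the highest neural sums of their arms, and without both the count of called genes was 8771 (42.8%), 25.1% of all genes higher and 17.6% lower. Without both, 8 of 9 excitatory neuron, 7 of 9 inhibitory neuron, 10 of 10 astrocyte and 12 of 12 oligodendrocyte lineage genes were higher, and 8 of 20 homeostatic, 10 of 14 transcription factor, 14 of 18 lysosome and 13 of 16 stress genes were lower. In neither experiment alone did any member of the 4 lists pass, with medians of 0.85 to 1.02 under the antibody and 0.99 to 1.36 under the deletion.

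The 12 higher genes of smallest p were Cdon, Gm36823, Gm54728, Sh3bgrl, Lrrc49, Gm31356, Naaladl2, Wwtr1, Sfrp1, Ube2e2, Mc5r and Cmpk2, and 0 of them were called in forebrain. Cdon, a cell surface coreceptor of hedgehog signalling, was at 8.14 to 19.8 CPM in control and 14.7 to 30.3 CPM in loss isolates, and at 25.4 to 29.1 and 25.7 to 30.6 CPM in forebrain. The isolate ranges overlapped because the experiments differed in level. Within the antibody experiment Cdon was at 9.64 ± 1.01 CPM (SD, n = 4) and 16.3 ± 1.27 CPM (SD, n = 4), and within the genotype experiment at 16.8 ± 3.17 CPM (SD, n = 4) and 27.2 ± 2.96 CPM (SD, n = 3). The difference was 0.73 ± 0.10 (SE, edgeR adjusted p = 0.000665). Wwtr1, which encodes the Hippo pathway coactivator TAZ, was at 56.1 to 79.5 CPM in control and 79.2 to 99.4 CPM in loss isolates (difference 0.49 ± 0.081, SE, edgeR adjusted p = 0.00142). Sfrp1, a secreted inhibitor of WNT signalling, was at 11.3 to 26.1 and 20.4 to 37.1 CPM (difference 0.72 ± 0.12, SE, edgeR adjusted p = 0.00143).

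A fit with the neural level of each isolate as a covariate called 156 genes (0.756%), 14 higher (0.0678%) and 142 lower (0.688%). All 12 named lower genes passed in it, though they were chosen by smallest p in these same libraries, which favours passing again. Of the 12 named higher genes 3 passed, Cdon, Wwtr1 and Gm54728. Several of the others missed the threshold narrowly with much of their size kept: Sfrp1 was at 0.69 (edgeR adjusted p = 0.0544), Gm36823 at 1.48 (edgeR adjusted p = 0.0506) and Sh3bgrl at 0.44 (edgeR adjusted p = 0.0525). On the pan-myeloid scale 9 of the 12 lower and 5 of the 12 higher passed, and those that did not kept sizeable differences, among them Cdon at 0.90 (edgeR adjusted p = 0.0501), Wwtr1 at 0.66 (edgeR adjusted p = 0.0590) and Med12l at -0.70 (edgeR adjusted p = 0.0590). Gpr165 kept a difference of -1.53 with the covariate and -1.56 on the pan-myeloid scale. With the covariate 1 homeostatic gene of 20 passed, Golm1 (-0.69), 2 transcription factors of 14, Maf (-0.67) and Sall3 (-0.89), and 1 lysosome gene of 18, Ctsd (-0.66). Among members that no longer passed, Adgrg1 was at -0.62 (edgeR adjusted p = 0.0542), Tal1 at -0.69 (edgeR adjusted p = 0.0880), Mef2a at -0.63 (edgeR adjusted p = 0.0716) and Smad3 at -0.36 (edgeR adjusted p = 0.283). The loss arms and the neural level move together, so the part of each in the other genes cannot be told apart.

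Where a gene is expressed went with the direction of its tissue difference. Genes were banded by the log2 ratio of their level in isolates to that in forebrain, taken over the same libraries and averaged over the 4 arms. Among 1993 genes with a ratio between -4 and -2, 48.2% were higher and 0.452% lower in isolates, with a median forebrain effect of 0.04. Among 1617 genes with a ratio between 2 and 4, 1.3% were higher and 27.3% lower. Above 4, where the microglia-restricted genes lie, 16.1% of 666 genes were lower, and 181 of 536 tested fell in forebrain against 44 of 1276 in the band below. The lower share was therefore largest between 2 and 4 and not among the genes most enriched in isolates.

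**Figure D5:**
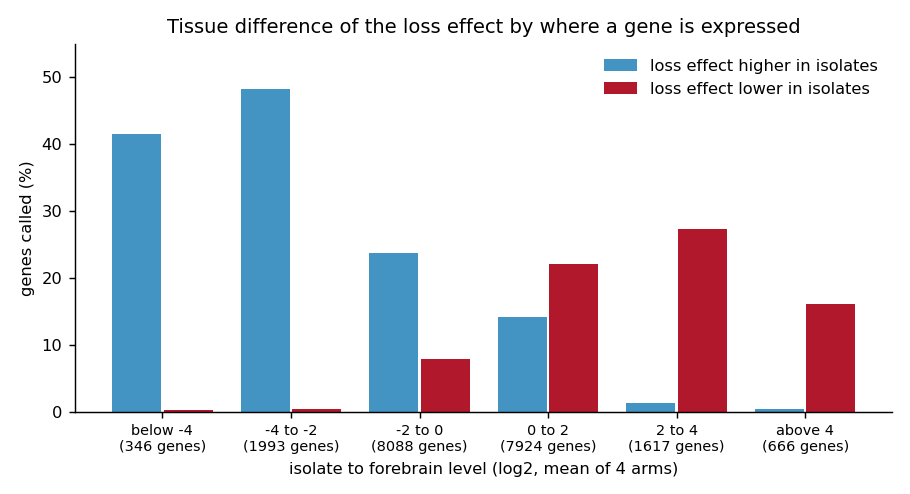
Share of genes called higher or lower in isolates than in forebrain for the loss effect (vertical, %), in 6 bands of the log2 ratio of isolate to forebrain level (horizontal, with the number of genes). Higher calls reach 48.2% in the band from -4 to -2, and lower calls reach 27.3% in the band from 2 to 4 and 16.1% above 4.

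Few interferon genes passed the pooled tests. Of 22, 3 rose in forebrain (Isg15, Oasl2 and Usp18), where 0.0406% of all genes did, and 2 in isolates, where 21.8% of all genes did. Without a-IL34 animal 11 or 24 or a-gp120 animal 1 or 7, only 1 gene of any kind was called higher in forebrain. Isg15 kept 1.29 to 1.79 over the fits without an animal, and missed the threshold in 6 of 15. The list's median was 0.98 in forebrain and 0.85 in isolates, with a median tissue difference of -0.12, and 1 of 22 genes was higher and 1 lower in isolates (20.2% and 14.2% of all genes). In the antibody experiment alone the medians were 1.73 and 1.91, with 14 of 22 genes called in forebrain (0.192% of all genes were higher there) and 1 in isolates (0.626% of all genes were called there). In the genotype experiment alone they were -0.18 and -0.59, with 0 called of 21 and of 22 tested. Whether the loss effect on this list differed between the experiments was not tested within a tissue. The summed level was 225.8, 254, 397 and 443 CPM in a-IL34 forebrain and 125, 144, 148 and 171 CPM in a-gp120 forebrain. In isolates it was at 975, 1765, 2184 and 2543 CPM under a-IL34 and at 412, 438, 481 and 1088 CPM under a-gp120, of which animal 1 was the highest. The called tissue differences were those of Cmpk2 (1.12 ± 0.19, SE, edgeR adjusted p = 0.00166), a mitochondrial nucleotide kinase induced by interferon, and Irf9 (-0.49 ± 0.17, SE, edgeR adjusted p = 0.0348), a subunit of the interferon-stimulated transcription complex. With the neural covariate neither passed, Cmpk2 at 0.99 (edgeR adjusted p = 0.0705) and Irf9 at 0.00 (edgeR adjusted p = 1), and on the pan-myeloid scale Irf9 was at -0.31 (edgeR adjusted p = 0.222). Cxcl10, a chemokine, was at 0.05 to 0.68 CPM in control and 0.04 to 4.69 CPM in loss forebrain, and rose there by 1.97 ± 0.40 (SE, edgeR adjusted p = 0.0134) on the log2 scale. Its forebrain effect was 2.55 in the antibody experiment alone, and in the genotype experiment alone it was too low to be tested. It missed the threshold without a-gp120 animal 1 or 7.

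Lists of other cells and functions gave 0 to 4 calls each, read against 20.2% of all genes higher and 14.2% lower. Of 12 border-associated macrophage genes 1 was lower in isolates, Stab1 (-0.42 ± 0.15, SE, edgeR adjusted p = 0.0358), a scavenger receptor, which fell in both tissues. Its difference was -0.24 on the pan-myeloid scale (edgeR adjusted p = 0.460) and -0.21 with the neural covariate (edgeR adjusted p = 0.628). In all, 2 of 11 tested border-associated macrophage genes fell in forebrain (1.2% of all genes did) and 3 of 12 in isolates (23.4% of all genes did). Their summed level was 30.9 to 44.3 CPM in control and 16.4 to 29.4 CPM in loss forebrain, with no overlap. In isolates it was 1192 to 1879 CPM in controls and 646 to 1200 CPM under loss. Mrc1, the mannose receptor, fell in both, by 0.60 in forebrain and by 0.61 in isolates on the log2 scale. Endothelial genes had 0 of 10 called, choroid plexus and ependyma genes 0 of 13, neutrophil genes 0 of 12 tested and cell cycle genes 0 of 14. Mural cell genes had 3 of 10 higher (Cspg4, Pdgfrb and Kcnj8), antigen presentation genes 3 of 13 lower (Tapbp, Tap1 and Tap2), complement and phagocytosis genes 3 of 16 lower (Mertk, Gas6 and Pros1) and 1 higher (Axl), monocyte genes 1 of 10 higher (Vcan) and erythroid genes 2 of 7 higher (Hba-a1 and Hbb-bs). With the neural covariate the named mural, antigen presentation and lower complement genes did not pass (edgeR adjusted p from 0.0705 to 0.736). With so few members these counts of tissue differences do not set the lists apart from all genes. Endothelial sums were 884 to 1638 CPM in control and 1069 to 1826 CPM in loss isolates. Antigen presentation sums moved opposite ways in the experiments in forebrain. They were 55.88 to 66.41 CPM in KO against 69.33 to 72.93 CPM in Het. Under a-IL34 they were 107.4 to 149.6 CPM, against 75.45 to 103.8 CPM under a-gp120. Tap1 in isolates was at -0.85 in the genotype and 0.78 in the antibody experiment. Whether the experiments differed within a tissue was not tested.

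The deletion and the antibody were also set against each other. Whether the tissue difference itself differed between the experiments was tested gene by gene, and 0 of 20634 genes passed with edgeR (600 at an unadjusted p under 0.05), with 0 by DESeq2 and 0 by limma. The 600 are fewer than the share of 0.05 that chance alone gives. Absence of calls does not show that the experiments agree. Leaving out KO animal 6 gave 1 gene, Slc24a4 (-1.99 ± 0.26, SE, edgeR adjusted p = 0.0398). The 24 named genes were chosen in the pooled fit of both experiments, which largely fixes a shared sign, and their values in each are a description. For Arsb the tissue difference was -0.97 in the genotype and -1.19 in the antibody experiment, for Gpr165 -1.68 and -1.80, for Slc7a8 -1.36 and -1.16, and for Cdon 0.74 and 0.70.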

How the data were processed

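RNA was extracted from whole forebrain and from CD11b isolates of 15 mice and amplified with the SMART-Seq v4 kit, according to the labels' protocols. The authors deposited unnormalized read counts per gene. The submitters' processing notes name STAR 2.7.5c, featureCounts 1.6.3, R 4.4.0 and GRCm38, with no role given. The gene length deposited by the authors, a unit outside the usual ones, equalled the whole gene span of GENCODE M21 for 51183 of 51498 matched genes, so reads of overlapping genes can be shared. 6 columns of counts matched no labelled sample and were not used.

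The tests were run in edgeR 4.0.16 under R 4.3.3 (TMM, its expression filter on the 8 groups, quasi-likelihood F test, Benjamini-Hochberg adjustment at 0.05). The tissue difference was tested as loss by tissue over 30 libraries, with the animal as a block and experiment by tissue as a term. The tissue effects used 15 libraries each, with experiment and sex. Each standard error is the absolute log2 change over √F. DESeq2 1.42.0 and limma 3.58.1 were alternatives. The script was tested on simulated data. Pairing comes from the animal number. Libraries of 1 animal had correlated deviations from their group means over genes (median r = 0.109, above 0.1 in 9 of 15 animals), against -0.0373 for other animals of the same arm. Deviations from a group mean cancel within the group, which pushes the latter value negative whenever the former is positive. The latter therefore adds no support for the pairing. No pair of replicates agreed within sampling noise (lowest chi-square per degree of freedom 5.48 over 42 pairs). Samples were grouped by their labels, and p-values measure the spread between these animals.

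Named genes were the 12 of smallest p in each direction of the tissue difference, Il34, Csf1r and Csf1, the 6 members of highest mean level and any called member of each of 23 lists, and the 5 of smallest p in each direction in each tissue. Members and lists were chosen with earlier results of these data known. Other genes named were chosen after their values were seen. Some members of the lists are not reported here. Alternatives were other scalings, filters, tools and covariates, each experiment alone and each animal left out. The fit with the neural covariate and the fits without Het animal 1 and a-gp120 animal 15 were chosen after seeing the data. Counting error adds to the spread of genes near 1 CPM, and the number of animals limits precision.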

Additional observations from a re-analysis of the deposited data

Results flagged for a closer look

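Of 306 tests of 1 library against the other 3 of its group, 15 (4.9%) stood apart by Dixon's test at 95%, and chance gives about 1 in 20. In forebrain, Het animal 20 had a neutrophil list sum of 5.85 CPM (others 1.43 to 1.84) and Het animal 21 a neural sum of 17400 CPM (others 18560 to 18790). The forebrain of a-gp120 animal 15 was low for the lysosome list (1314 CPM, others 1449 to 1472), astrocytes (7073 CPM, others 7877 to 7955) and the 4 neural lists (16630 CPM, others 18970 to 19270). The forebrain of a-gp120 animal 8 had a transcription factor sum of 1277 CPM (others 1343 to 1353), that of a-gp120 animal 1 had Cep68 at 42.8 CPM (others 38.2 at most), and that of a-IL34 animal 24 a choroid plexus and ependyma sum of 522 CPM (others 288 to 291). Among isolates, Het animal 21 had Gpr165 at 122.9 CPM (others 88.7 to 91.8) and Ube2e2 at 18.3 CPM (others 27.0 to 28.1), and Het animal 23 had Nos1ap at 48.0 CPM (others 41.8 to 42.7). The isolate of a-gp120 animal 7 was low for Cdon (8.14 CPM, others 9.97 to 10.3) and Scoc (187.8 CPM, others 245 to 249). That of a-gp120 animal 1 had an interferon sum of 1088 CPM (others 412 to 481), and that of a-IL34 animal 11 an endothelial sum of 1826 CPM (others 1132 to 1235).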

How the results depend on the processing

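The count of genes with a tissue difference was 7114 with the animal as a replicate block and 7114 without it (4143 higher and 2971 lower), and 5467 to 8278 when an animal was left out, lowest without a-gp120 animal 1 and highest without a-gp120 animal 15. It changed to 515 in the genotype experiment alone, 2 in the antibody experiment alone (fewer animals in both), 156 with the neural covariate and 214 on the pan-myeloid scale, where 21.5% of the called genes were higher. In forebrain the 244 genes changed to 120 (genotype alone), 123 (antibody alone), 535 (no filter on low counts) and 18566 (pan-myeloid scale), and ranged from 195 to 294 without an animal. In isolates the 8468 changed to 976 (genotype alone), 110 (antibody alone) and 17013 (pan-myeloid scale), and ranged from 6236 to 9829. The difference between experiments ranged from 0 to 1 gene. On the pan-myeloid scale, which raises the median isolate effect of all genes to 1.14, the isolate effects of many genes changed sign, Csf1 to 0.34 and Med12l to 0.18 among them. The other alternatives run kept these counts within 1.5 times. All 24 named genes passed in the 15 fits that left out an animal, as did 4881 of the 7114 called genes. The 24 were those of smallest p in the fit of all animals, which largely fixes this result. Of the tests on single named genes, 74 under other settings and 22 with an animal left out kept their direction and no longer passed.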
